A study of Mus musculus with 480 samples.

Results

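The genes described here encode cilia-associated proteins (symbols starting with Cfap), radial spoke head and stalk proteins (Rsph), tektins (Tekt) and sperm-associated antigens (Spag), with 12 further genes of motile cilia named one by one. All protein-coding genes with these symbol prefixes were taken, whatever their expression, together with Ccdc153, Ccdc113, Tmem212, Fam183b, Mlf1, Lrrc23, Ak7, Cdhr3, Riiad1, Vwa3a, Efcab1 and Ccdc78. This gave 68 of the 53379 genes in the table of reads, among them 31 Cfap, 8 Rsph, 5 Tekt and 12 Spag genes. The study sorted 480 single tdTomato-positive lung epithelial cells from 3 mouse lines, 160 cells per line, on 5 plates of 96 wells. BASCs-Tracer mice carried Sftpc-DreER, Scgba1a1-CreER (so spelled in the labels) and R26-RSR-LSL-tdtomato, so that both the Dre driven by the surfactant gene of alveolar type 2 (AT2) cells and the Cre driven by the secretoglobin gene of club cells had to act before a cell was marked. Scgb1a1-TD mice carried Scgba1a1-CreER with R26-tdtomato, and Sftpc-TD mice carried Sftpc-DreER with R26-RSR-tdtomato. The labels call each cell a bronchioalveolar stem cell (BASCs), a club cell, an AT2 cell or a ciliated cell, and they give no age, treatment or animal, so each group of cells was treated as 1 sample and no test between groups was made.

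Motile cilia of airway cells beat by means of an axoneme, a ring of doublet microtubules around a central pair. Tektins run inside the doublets, radial spokes reach from the doublets to the central pair and pass on signals that coordinate the dynein arms, and several Spag and Cfap proteins form the central pair projections. Transcription of this programme in multiciliated cells is driven by Foxj1 together with the RFX family, whose members bind pairs of half-sites in the promoters of ciliary genes.

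Ciliated cells made up 25 of the 480 cells, of which 24 came from Scgb1a1-TD and 1 from BASCs-Tracer. Sftpc-TD held none. The 24 cells lay on plates 2, 3 and 4 (5, 13 and 6 cells) and held 22025351 gene-assigned reads, between 215361 and 1299364 per cell. The other groups were 97 club cells, 38 BASCs and 1 AT2 cell of Scgb1a1-TD. BASCs-Tracer gave 85 BASCs on plate 1 and 53 on plate 2, 15 club cells and 6 AT2 cells. Sftpc-TD gave 60 AT2 cells on plate 4 and 89 on plate 5, with 11 BASCs. Depth ranged from 3379 to 3781974 reads per cell, with a median of 1000465. Foxj1 had a read in 23 of the 24 ciliated cells, with a lowest value of 0, a median of 262.8 and a highest value of 1036 CPM (counts scaled to the gene-assigned reads of the cell, as counts per 1000000). All 17 of 17 ciliated cell markers, 3 of which are also in the set described here, were 2-fold or more higher in these cells than in club cells, where 43% of all measured genes were; 10 of the 17 had under 5 CPM in club cells. None of 6 basal and 6 neuroendocrine markers reached 5 CPM in either group. Of 6 endothelial markers 5 did, with 3 of them 2-fold or more higher and 1 lower in ciliated cells. Of 8 AT1 markers 5 did, with 1 higher and 2 lower. Of 8 leukocyte and 6 mesenchymal markers 1 each did, and both were lower in ciliated cells. The sub-type labels may rest on the same reads, so differences between ciliated and other cells describe the annotated groups.

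In 5 cells, high levels of these genes lay beside high levels of club cell markers. They were found by a rule chosen after the values were seen: 1000 CPM or more summed over the 12 genes named one by one, 100000 CPM or more summed over 12 club cell markers, and 10000 reads or more. They were ciliated cells 10 and 13 and club cell 24 of Scgb1a1-TD, all on plate 3, and the only ciliated cell and club cell 12 of BASCs-Tracer, both on plate 2. Ciliated cell 10 held 3343 CPM of the 12 genes and 292290 CPM of club markers, and cell 13 held 5364 and 222001 CPM. Foxj1 had no read in ciliated cell 10, the only one of the 24 without a read, and stood at 115.3 CPM in cell 13. Club cell 24 held 3241 CPM of the 12 genes and 233511 CPM of club markers, and Foxj1 at 150.8 CPM. The other 22 ciliated cells of Scgb1a1-TD had between 5483 and 13473 CPM of the 12 genes and between 2037 and 38704 CPM of club markers. Whether these 5 wells held more than 1 cell was not tested. Results that rest on them are given with and without them.

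**Figure D1:**
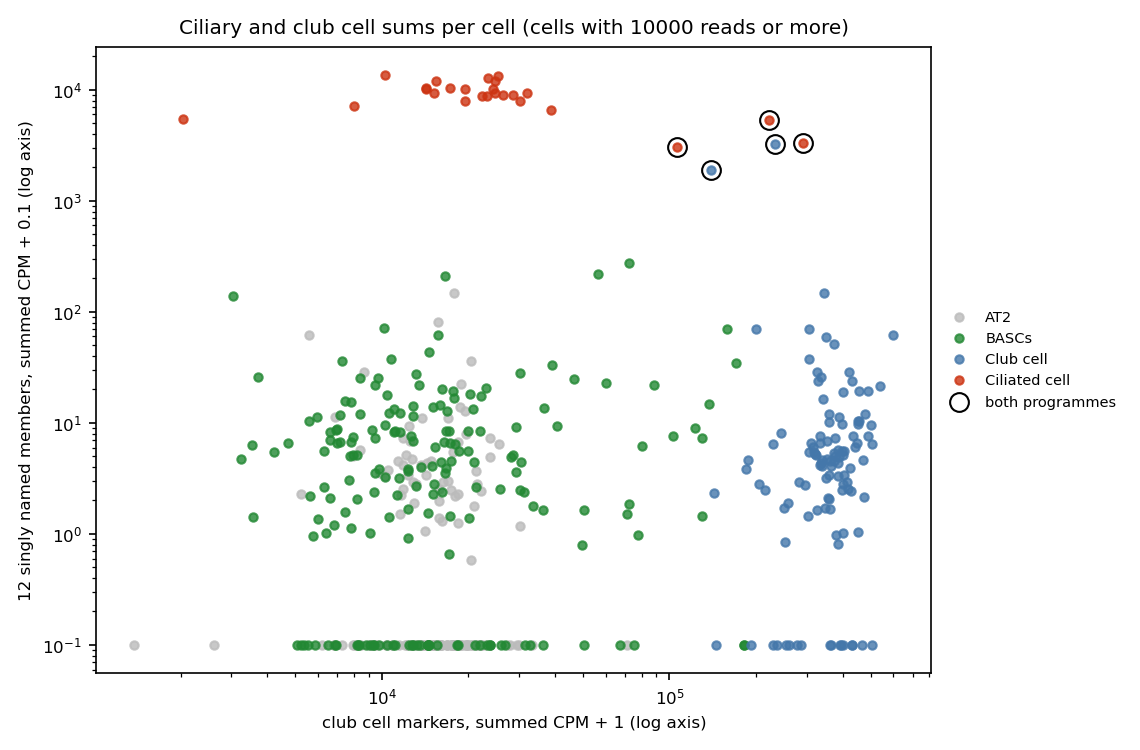
Each point is a cell with 10000 reads or more, by summed CPM of 12 club cell markers (x, log axis, 1 CPM added) and of the 12 singly named ciliary genes (y, log axis, 0.1 CPM added), coloured by annotated sub-type over all 3 lines. Rings mark the 5 cells with both sums high; 22 ciliated cells sit at 5483 CPM or more on the y axis, and cells of the other sub-types outside the rings reach at most 272.9 CPM.

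The promoters of several of these genes carried the RFX half-site. Of the 68 genes, 53 had a promoter window in the RefSeq table (GRCm38.p6, 250 bases before to 50 bases after the annotated start). The half-site GTTGCC, searched on both strands, lay in the window of 25 of these 53 genes (47.2%). It lay in 14.1% of the 27025 genes of the table and in 16.4% of the 8106 genes with a window and 5 CPM or more in ciliated cells. Among the 20 of the 53 genes with the highest level per length in ciliated cells it was found in 14, and among the other 33 in 11. The genes come from a few families and were chosen for their link to cilia, so this is a description of their windows, and a match is not a bound site. The forkhead sequence TGTTTAC, which does not overlap the half-site, was found on either strand in 5 of the 53 genes (9.43%), against 4.05% of all genes. A pair of half-sites, GTTNCC followed by GGNAAC after 0 to 3 bases, lay in 2 genes (3.77%), Fam183b and Cfap298, against 0.936% of all genes. The windows of Tmem212, Cfap126 and Rsph9 held neither the half-site nor the forkhead sequence.

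Shown are the 250 bases before the start for 7 genes. Of the genes with a window, these have the highest level per length among those whose half-site lies in that stretch. Rsph1 and Riiad1, which were higher than some of the 7, had no window. Capitals mark the half-site on either strand and, in Mlf1, the forkhead sequence. All are written 5′ to 3′ on the strand of the gene.
Fam183b (chr11:58801961-58802210, - strand): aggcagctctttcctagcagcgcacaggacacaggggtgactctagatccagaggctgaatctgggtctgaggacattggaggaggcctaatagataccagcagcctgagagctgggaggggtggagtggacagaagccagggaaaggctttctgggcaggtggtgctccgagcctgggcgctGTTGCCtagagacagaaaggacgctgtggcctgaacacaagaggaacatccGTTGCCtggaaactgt
Ccdc153 (chr9:44240427-44240676, + strand): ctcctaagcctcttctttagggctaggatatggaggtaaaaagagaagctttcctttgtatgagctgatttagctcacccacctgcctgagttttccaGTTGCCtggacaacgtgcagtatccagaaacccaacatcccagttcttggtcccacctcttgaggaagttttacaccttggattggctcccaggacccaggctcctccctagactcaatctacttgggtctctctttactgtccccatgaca
Mlf1 (chr3:67373847-67374096, + strand): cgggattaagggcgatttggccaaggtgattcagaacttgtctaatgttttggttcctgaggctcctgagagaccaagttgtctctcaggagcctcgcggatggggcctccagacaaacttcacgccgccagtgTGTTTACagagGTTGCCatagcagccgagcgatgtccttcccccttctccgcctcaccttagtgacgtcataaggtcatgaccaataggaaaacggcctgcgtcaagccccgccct
Tekt1 (chr11:72361883-72362132, - strand): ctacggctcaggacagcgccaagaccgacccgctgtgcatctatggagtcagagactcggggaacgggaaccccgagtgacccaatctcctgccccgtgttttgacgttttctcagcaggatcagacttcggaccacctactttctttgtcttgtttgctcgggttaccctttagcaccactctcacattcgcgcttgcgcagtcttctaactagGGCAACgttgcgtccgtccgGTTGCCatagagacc
Lrrc23 (chr6:124779728-124779977, - strand): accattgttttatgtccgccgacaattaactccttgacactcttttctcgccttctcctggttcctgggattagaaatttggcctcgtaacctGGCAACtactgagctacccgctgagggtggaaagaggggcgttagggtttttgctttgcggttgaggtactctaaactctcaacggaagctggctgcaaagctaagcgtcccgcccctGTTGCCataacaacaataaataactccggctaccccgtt
Ccdc78 (chr17:25786330-25786579, + strand): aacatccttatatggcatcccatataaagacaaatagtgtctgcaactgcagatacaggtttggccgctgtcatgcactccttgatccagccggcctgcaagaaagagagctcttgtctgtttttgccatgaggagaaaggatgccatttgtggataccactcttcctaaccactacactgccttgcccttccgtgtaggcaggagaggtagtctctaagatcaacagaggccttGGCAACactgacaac
Cfap298 (chr16:90934850-90935099, - strand): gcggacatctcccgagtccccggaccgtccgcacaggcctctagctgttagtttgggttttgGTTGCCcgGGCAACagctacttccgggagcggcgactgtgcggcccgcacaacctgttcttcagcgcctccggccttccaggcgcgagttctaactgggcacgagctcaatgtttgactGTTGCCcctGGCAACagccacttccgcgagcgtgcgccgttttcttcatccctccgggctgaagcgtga
Starts here are those of RefSeq. In the GENCODE annotation, used for the gene positions given elsewhere, Tekt1 and Cfap298 begin further upstream, at chr11:72362442 and chr16:90935114. The stretches shown for them therefore lie inside the GENCODE genes. In Tekt1, which encodes a tektin of the doublet, the half-sites began 35 and 15 bases before the RefSeq start, on opposite strands. In Ccdc78 the half-site began 15 bases before the start. In Fam183b the half-sites began 67 and 16 bases before it, on the same strand, and the window held 1 pair. Cfap298, a dynein arm assembly factor, held 4 half-sites, arranged as 2 pairs, the nearer of them at 69 and 60 bases before the start. In Mlf1 the forkhead sequence and the half-site lay close to each other.

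The level of the set in ciliated cells ranged from 0.605 to 2391 CPM per kb of exon among the genes with a read. Levels between genes are compared as CPM per kb of annotated exon, since the libraries were made from full-length cDNA. Of the 68 genes, 62 had a read in the 24 ciliated cells of Scgb1a1-TD and 60 had 5 CPM or more. The highest was Tmem212, a small transmembrane protein gene (chr3:27866066-27896368, minus strand, GRCm38), at 2391 CPM per kb, eighth in level among all protein-coding genes. Fam183b followed at 1822 CPM per kb and rank 13, and Ccdc153, a component of the nexin-dynein regulatory complex, at 596.4 CPM per kb and rank 54. Cfap126, known for its part in basal body positioning, had 578.5 CPM per kb, Rsph1 had 565 and Mlf1 had 498.4. Riiad1 at 434.3, then Tekt1, Lrrc23 (a radial spoke protein) at 338.6 and Ccdc78 (a centriole amplification protein) at 317.9 CPM per kb completed the 10 highest. Of those 10, 6 were also among the 10 highest in plain CPM, without division by length. The median was 328.2 CPM per kb over the 12 singly named genes, 84.6 over the tektins and 70.8 over the radial spoke genes. It was 52.5 over the Cfap genes and lowest over the Spag genes, at 6.29. The Spag median includes Spag4, Spag6, Spag11a and Spag11b, which had no read. Spag6l, Spag8, Spag7, Spag17 and Spag16 stood above the Cfap median, and Spag9, Spag1 and Spag5 below it.

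**Figure D2:**
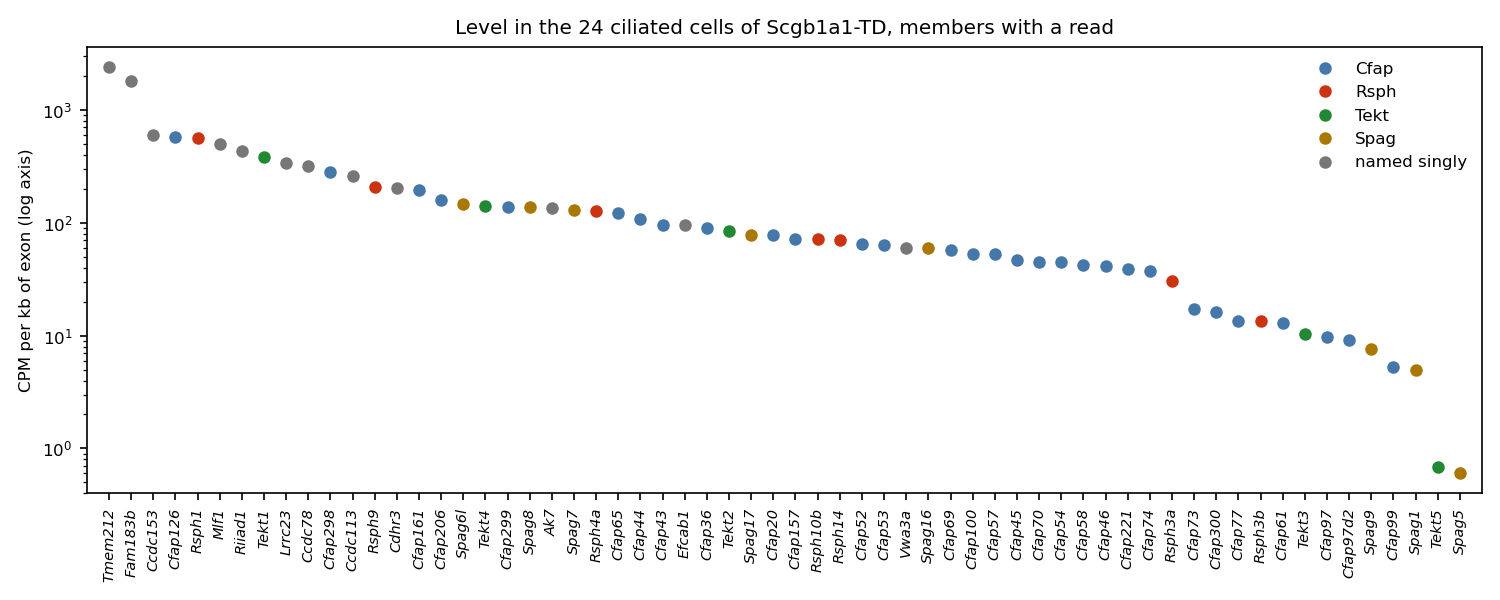
Pooled level of the 62 genes with a read in the 24 ciliated cells of Scgb1a1-TD, in CPM per kb of exon on a log axis, ordered from highest to lowest and coloured by gene family. Tmem212 and Fam183b stand at 2391 and 1822, and Tekt5 and Spag5 below 1.

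Tmem212 had a lowest value of 88.9, a median of 1781 and a highest value of 3136 CPM over the 24 ciliated cells. Its pooled level was 1712 CPM (95% Poisson interval for counting error, 1695 to 1729). Fam183b ranged from 248.7 to 2918 CPM with a median of 1124, and Ccdc153 from 116.2 to 2478 CPM with a median of 1272. All 3 had a read in each of the 24 cells. Mlf1, which encodes myeloid leukaemia factor 1, ranged from 278.8 to 1671 CPM with a median of 917.3 and had the lowest coefficient of variation of the set over cells, at 39.9%. Tmem212, Ccdc153 and Rsph1 followed at 45.3%, 46.1% and 47.2%. The median coefficient of variation was 86.1% over the 60 genes with 5 CPM or more, and 215.1% over all 10826 genes that passed the same minimum. The sets compared were not matched on level.

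These genes were found in most ciliated cells. A read was present in 20 or more of the 24 cells for 45 of the 60 genes (75%), against 16.1% of the 10826 genes, and in all 24 cells for 19 (31.7%), against 4.44%. The sets were again not matched on level, on which the presence of a read depends. Each ciliated cell had a read of between 39 and 59 of the 68 genes, with a median of 50.5. All 12 singly named genes were read in 19 of the 24 cells, and 11 or more in every one. The sum over the 12 was 9261 CPM on plate 2, 8696 on plate 3 and 9936 on plate 4. Without ciliated cells 10 and 13 it was 9574 CPM on plate 3.

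Among the radial spoke genes, the head components were the highest. Rsph1 (chr17:31255019-31277383, minus strand) had a pooled level of 775.2 CPM, with a lowest value of 100.5, a median of 865.4 and a highest value of 1586 CPM over ciliated cells. Rsph9 had 335.7 CPM (0, 302.3 and 941.9) and Rsph4a had 465.3 CPM (0, 304.6 and 1629). Rsph1 was read in all 24 cells, Rsph9 in 23 and Rsph4a in 22. Per length the order was Rsph1, then Rsph9 at 209.6, Rsph4a at 127.5, Rsph10b at 71.2, Rsph14 at 70.3, Rsph3a at 30.2 and Rsph3b at 13.5 CPM per kb. Rsph9 and Rsph4a had nearly the same median over cells, and Rsph4a reached the higher values. Rsph3a and Rsph3b encode near-identical stalk proteins, so reads could be split between the copies and both levels are uncertain. Rsph6a, which encodes a spoke head protein known from sperm, had no read in any ciliated cell; a count of 0 in 22025351 reads allows up to 0.136 CPM.

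The tektins split into 3 that were widely read and 2 that were not. Tekt1 (chr11:72344722-72362442, minus strand) had a pooled level of 627.7 CPM, with a lowest value of 0, a median of 609 and a highest value of 1353 CPM, and was read in 23 of the 24 cells. Tekt4 had 280.7 CPM (0, 264.2 and 644.1) in 22 cells, and Tekt2 had 160.8 CPM (0, 136.9 and 381.9) in 20 cells. Per length the order was Tekt1, then Tekt4 at 140.5 and Tekt2 at 84.6 CPM per kb. Exons of Tekt2 share 20.8% of their length with the neighbouring gene Gm12945, and since the strand setting of the counting is not given in the sources used here, its level is less certain. The same limit holds for Cfap299 (19.1% shared with other genes), Rsph10b (15.7%), Spag17 (15.7%), Cfap157 (10.6%) and Ccdc78 (10.5%). Some further genes share smaller parts. Tekt3 was read in 4 of 24 cells, with a pooled 18.2 CPM and a highest value of 281.7 CPM. Tekt5 was read in 1 ciliated cell, at 26.8 CPM. Both are best known from the sperm flagellum.

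Spag6l, Spag16 and Spag17 encode proteins of the central pair. Spag6l had 671.8 CPM (2.08, 590.7 and 1357 over cells), Spag17 had 665.9 CPM (50.6, 555.4 and 3002) and Spag16 had 403.9 CPM (0.779, 321.7 and 1246). Each of these 3 was read in all 24 cells. Spag6, a near-identical copy of Spag6l on another chromosome, had no read in ciliated cells. As with Rsph3a and Rsph3b, the counting of reads that match both copies makes both levels uncertain. Also without a read in ciliated cells were Cfap97d1, Spag4, Spag11a and Spag11b. Spag4 is known from spermatids, and Spag11a and Spag11b encode defensin-like proteins of the epididymis. Cfap65 at 955 CPM, Cfap44 at 912 CPM and Cfap43 at 680 CPM were each read in all 24 cells; Cfap43 and Cfap44 form a complex that tethers inner dynein arms. Cfap161 had 617 CPM, Cfap206 396.9 CPM, Cfap299 200.2 CPM and Spag8 227.7 CPM, and they were read in 23, 23, 21 and 20 cells. The least evenly read genes with 5 CPM or more were Tekt3, Cfap99 and Cfap73, with coefficients of variation of 295.2%, 274.2% and 258.5%.

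The 24 ciliated cells of Scgb1a1-TD differed from the 97 club cells of the same line and plates by a wide margin. Ratios are log2 of pooled CPM with 1 CPM added, and a gene counts as measured with 5 CPM or more in either group. Of the 68 genes, 58 were 2-fold or more higher in ciliated cells, 0 were lower, 3 lay within 2-fold (Spag7, Spag9 and Spag5) and 7 were not measured. Of all 12011 measured genes, 43% were 2-fold or more higher and 14.9% lower in ciliated cells, with a median ratio of 0.74 on the log2 scale. At 32-fold or more, a limit chosen after the values were seen, stood 46 of the set against 3.46% of all measured genes. Of the 61 measured, 45 passed the minimum through ciliated cells alone and therefore had to be higher there; 16 reached 5 CPM in club cells too, and 13 of these were 2-fold or more higher in ciliated cells. Without the cells of both programmes 11 reached 5 CPM in club cells, and 8 of these were higher; Tmem212, Fam183b, Ccdc153, Cdhr3 and Cfap126 no longer did. The median log2 ratio of the set was 6.75, and 7.24 without the 3 cells of both programmes in these groups, with 58 still 2-fold or more higher and 47 past 32-fold. With scaling by the median ratio the median of all genes moved from 0.74 to 0.12, and the share of all genes that were higher from 43% to 29.2%; the share that were lower moved from 14.9% to 23.5%. Relative to that shift, 58 of the set were still higher, and 1 was lower.

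By family, 30 of 30 measured Cfap genes, 7 of 7 radial spoke genes, 4 of 4 tektins, 5 of 8 Spag genes and all 12 singly named genes were 2-fold or more higher in ciliated than in club cells. Among radial spoke genes the log2 ratio was 7.58 for Rsph14, 7.44 for Rsph4a, 7.36 for Rsph1, 6.43 for Rsph10b and 5.94 for Rsph9. The stalk genes stood nearer to club cells, Rsph3a at 91 and 4.62 CPM (4.03) and Rsph3b at 42.2 and 8.75 CPM (2.15). Tekt4 had a ratio of 7.97, with at most 2.72 CPM in any club cell, and Tekt2, Tekt1 and Tekt3 had 6.97, 6.82 and 4.25. The ratios of the 12 singly named genes lay between 5.96 (Ccdc113, at 332.8 and 4.35 CPM) and 8.47 (Efcab1). Without the cells of both programmes, which were picked by the sum of these same 12 genes, they lay between 7.11 (Ccdc113) and 9.99 (Tmem212). Efcab1 was at 8.57. Cdhr3, a cadherin whose human homologue is a rhinovirus receptor, stood at 923.7 and 6.43 CPM (6.96). Spag5, which encodes a spindle protein, was at 3.41 CPM in ciliated and 5.87 CPM in club cells. Club cell 73 held 91.9% of its club reads, and without it and club cell 24 the club level was 0.486 CPM.

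The pooled level of some radial spoke genes differed between plates of ciliated cells. Rsph4a had 250 CPM on plate 2, 415.2 CPM on plate 3 and 637.7 CPM on plate 4. Rsph10b had 76.2, 214.6 and 278.5 CPM in the same order. Rsph1 had 1001 CPM on plate 2, above the other plates, where it had 746 and 766.4 CPM. Tekt1 varied less, between 566.7 and 683 CPM. Plate 2 held only 5 ciliated cells, with a median depth of 262574 reads against 1035516 on plate 3 and 1043180 on plate 4, and the part of depth in these differences was not tested.

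**Figure D3:**
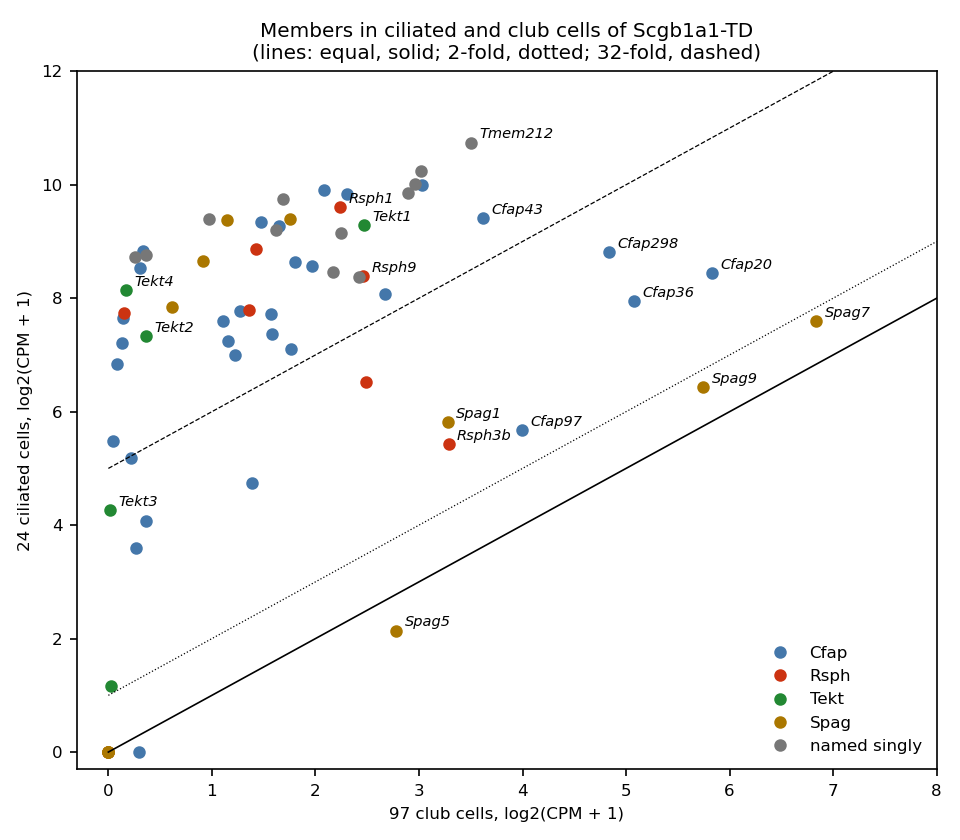
Pooled levels of the 68 genes in club cells (x) and ciliated cells (y) of Scgb1a1-TD, both as log2 of CPM with 1 CPM added, coloured by gene family. The solid line marks equal levels, the dotted line 2-fold and the dashed line 32-fold; 46 genes lie above the dashed line, while Spag7, Spag9 and Spag5 lie below the dotted one.

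A single club cell carried most of the reads of many genes in the club group. Tmem212 had 10.3 CPM in the 97 club cells, and 92.5% of those reads lay in club cell 24. Without that cell and ciliated cells 10 and 13, Tmem212 stood at 1815 CPM in ciliated and 0.781 CPM in club cells, a log2 ratio of 9.99 in place of 7.24. Its highest value in the other club cells was then 4.80 CPM, below the lowest of the ciliated cells. For Ccdc153 the ratio moved from 7.23 to 9.49, for Fam183b from 7.06 to 9.05, for Tekt1 from 6.82 to 9.02, for Rsph1 from 7.36 to 8.69 and for Ak7, an adenylate kinase of cilia, from 6.90 to 8.89. Ratios that hardly moved were those of Rsph14 (7.58 and 7.66), Tekt4 (7.97 and 8.12), Efcab1 (8.47 and 8.57), which encodes a calcium-binding protein of the outer dynein arm, and Cfap69 (8.50 and 8.64), for each of which club cell 24 held 8.33% or less of the club reads. Without the 3 cells, the club level of the 12 singly named genes was between 0.0417% and 0.443% of the ciliated level, with a median of 0.067%. Club cell 24 was left out for its high sum of these same 12 genes, so a lower club level of that sum had to follow. The rise of their ratios is therefore no separate result. Over the whole set, 46 genes stood below 1% in club cells and 8 above 10%.

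Against the 38 BASCs of Scgb1a1-TD, which share the 24 ciliated cells as the other arm, 59 of the 68 genes were 2-fold or more higher in ciliated cells, 1 was lower, 1 lay within 2-fold and 7 were not measured. Of all 12068 measured genes, 48.9% were higher and 16.5% lower, with a median ratio of 0.96. With scaling by the median ratio these were 35% and 25.7%, with a median of 0.24, and 57 of the set were higher and 1 lower. The set had a median log2 ratio of 7.55, and 50 of the 61 passed the minimum through ciliated cells alone. Of the 11 that reached 5 CPM in BASCs, 9 were higher in ciliated cells, and 8 without ciliated cells 10 and 13. Cfap97 lay within 2-fold, at 50.3 CPM in ciliated cells and 27.7 CPM in BASCs, but 71.3% of its BASC reads lay in BASC 33, without which the BASCs had 8.24 CPM. Tekt5 was the lower one, with 1.23 CPM in ciliated cells and 5.13 CPM in BASCs, all from 2 of the 38 cells. Spag7 was at 193.1 and 95.6 CPM (log2 ratio 1.01) and Spag9 at 85.4 and 35 CPM (1.26).

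Other genes of the motile cilium, from lists with the genes of the set left out, were also compared between ciliated and club cells, where 43% of all 12011 measured genes were 2-fold or more higher. All 18 of 18 axonemal dynein arm genes were 2-fold or more higher in ciliated cells, as were 8 of 8 measured dynein arm assembly factors, 9 of 9 genes of the nexin-dynein regulatory complex, 9 of 9 ruler and doublet proteins and 4 of 4 central pair genes. Of 9 measured regulators, 8 were higher and 1 lay within 2-fold. Most of these genes passed the minimum through ciliated cells alone and had to be higher there: 16 of the 18 dynein arm genes, 7 of the 8 assembly factors, 8 of the 9 genes of the regulatory complex, 6 of the 9 ruler and doublet proteins, all 4 central pair genes and 6 of the 9 regulators. Median log2 ratios were 6.57 for the dynein arms, 6.24 for the assembly factors, 5.90 for the regulatory complex and 5.22 for the regulators. The 18 measured genes of intraflagellar transport, a process that non-motile cilia use as well, all had 5 CPM or more in club cells as well. All 18 were higher in ciliated cells, with a median of 3.70, and 2 were past 32-fold, against 3.46% of all measured genes.

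**Figure D4:**
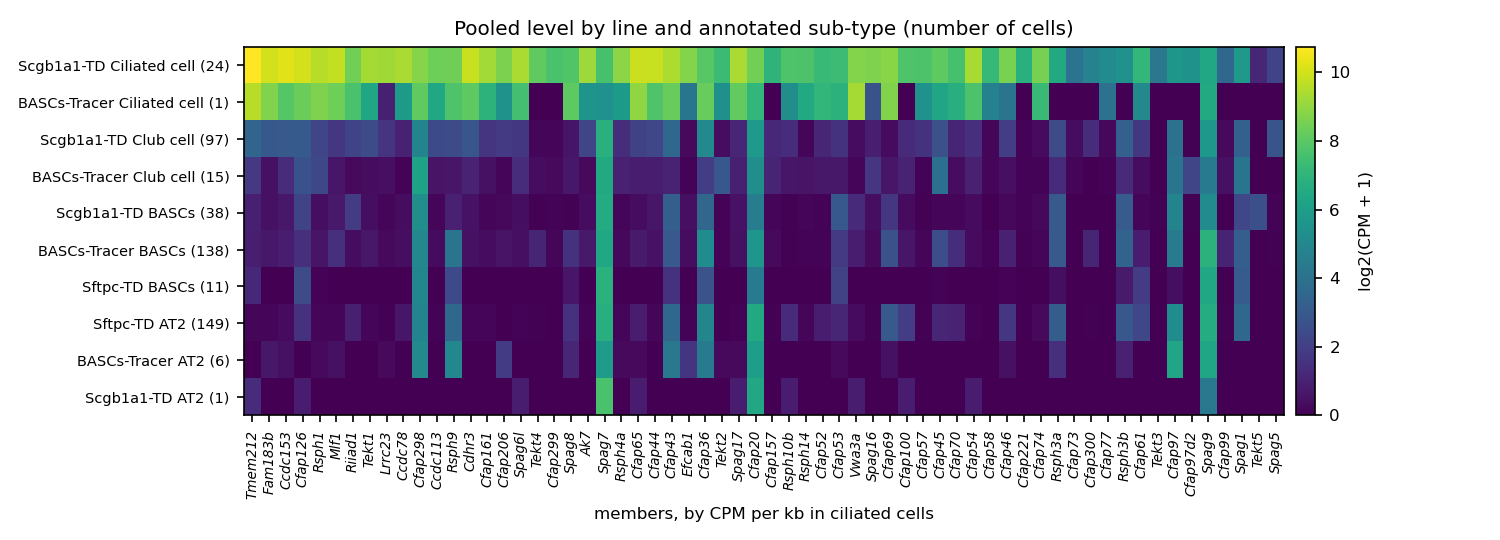
Pooled level of the 62 genes with a read in ciliated cells of Scgb1a1-TD, as log2 of CPM with 1 CPM added, in the 10 groups of line and sub-type (number of cells in brackets), with genes ordered by CPM per kb in ciliated cells. Both ciliated rows are bright for most genes, and Spag7, Cfap298, Cfap36, Cfap20, Cfap97 and Spag9 are visible in most other rows.

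The only ciliated cell of BASCs-Tracer had 1099813 reads and a read of 46 of the 68 genes, within the range of the 24 cells of Scgb1a1-TD. Its sum over the 12 singly named genes was 3058 CPM, below the lowest of those 24 cells (3343 CPM). Tmem212 stood at 770 CPM and Ccdc153 at 241.9 CPM. Vwa3a, at 621 CPM, was above its pooled 434.2 CPM in Scgb1a1-TD and within the range of those cells. Lrrc23 had 0.909 CPM, below the lowest of the 24 cells (56.4 CPM). Tekt4, Cfap299, Cfap100, Cfap157, Cfap221, Rsph3a and Rsph3b had no read, and neither had Foxj1. The same cell held 105921 CPM of club markers and 236221 CPM of AT2 markers, against highest values of 292290 and 16408 CPM in the 24 cells, and their part in these levels was not tested.

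Outside the ciliated cells the genes were ordered by how many cells held 20 reads or more, among the 480 cells without the 25 ciliated cells and the 2 club cells of both programmes. For 18 genes no cell did, and for 30 only 1 to 3 cells did. For 9 genes 4 to 16 cells did, for 6 genes 17 to 99 cells, and for 5 genes 100 cells or more. Tmem212 was read in 32% of these cells and Ccdc153 in 29.8%, but no such cell had 20 reads of either. All 12 singly named genes had a median of 1 read in the cells where they were read, in 11% to 32% of cells.

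**Figure D5:**
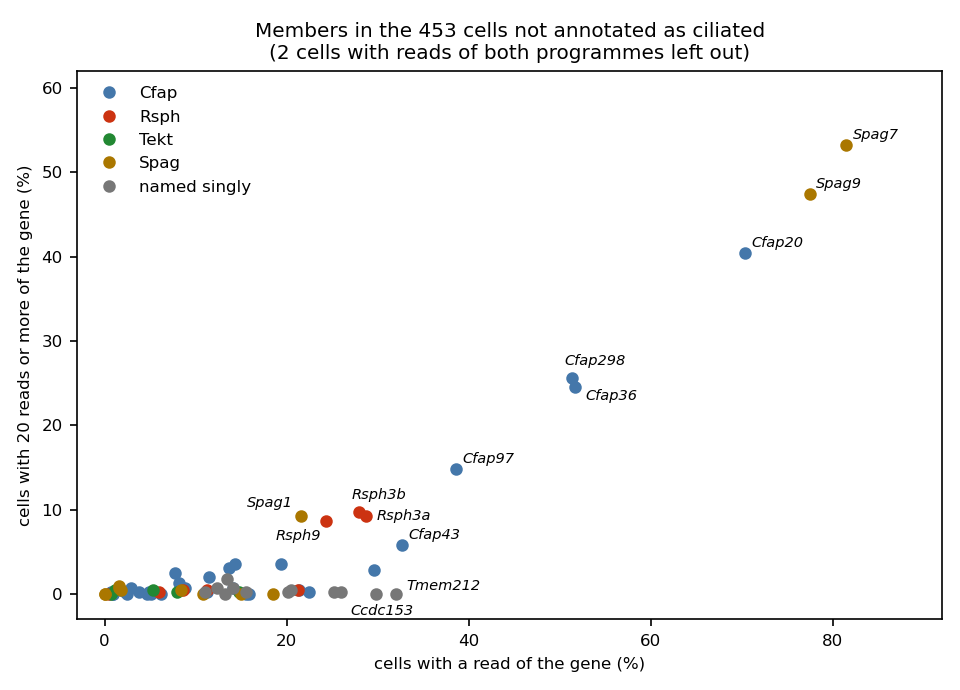
Share of the cells not annotated as ciliated (2 club cells of both programmes left out) with a read of each gene (x, percent) and with 20 reads or more (y, percent), coloured by gene family. Spag7, Spag9 and Cfap20 lie at the upper right, whereas Tmem212 and Ccdc153 reach 32% and 29.8% on the x axis at 0% on the y axis.

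Spag7, Spag9, Cfap20, Cfap298 and Cfap36 had 20 reads or more in 100 or more of these cells. Within Scgb1a1-TD, Spag7 had 193.1 CPM in ciliated cells, 113.2 CPM in club cells and 95.6 CPM in BASCs. In BASCs-Tracer its BASCs had 85.8 CPM, and the AT2 cells of Sftpc-TD had 105.6 CPM. It was read in 81.5% of the cells that are not ciliated, and 65.3% of the cells with a read had 20 or more. Spag9, a scaffold of JNK signalling and motor transport, had 85.4 CPM in ciliated cells and 52.6 CPM in club cells. Its level was 98.1 CPM in AT2 cells of Sftpc-TD and 119.2 CPM in the BASCs-Tracer BASCs, so ciliated cells were not the highest. Cfap20, a protein of the inner junction of the doublet, had 347.1 CPM in ciliated cells, 55.8 CPM in club cells and 92.2 CPM in AT2 cells. Cfap298 had 448.1 CPM in ciliated cells, and between 27.5 and 38.8 CPM in the BASCs of all 3 lines, Scgb1a1-TD club cells and Sftpc-TD AT2 cells. In Sftpc-TD BASCs its level was 29.8 CPM, and 12.8 CPM without BASC 8. Club cells of BASCs-Tracer had 72.9 CPM without club cell 12, and 39.1 CPM without club cell 9 as well, which held 58.3% of those reads. Of its exon length 53.6% is shared with other annotated genes, so part of its reads may belong to them. Cfap36 had 32.7 CPM in club cells and 29.3 CPM in AT2 cells, and its log2 ratio between ciliated and club cells was 2.87.

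Rsph9, Rsph3a, Rsph3b, Cfap43, Cfap97 and Spag1 had 20 reads or more in 17 to 99 of these cells. For Rsph9 these were 14 BASCs of BASCs-Tracer (10.1%) and 15 AT2 cells of Sftpc-TD (10.1%), at medians of 139.8 and 112.5 CPM. In 7 of 96 club cells (7.29%) the median was 68.8 CPM. Rsph1 and Rsph4a, its partners in the spoke head, each had 20 reads or more in 2 of the cells that are not ciliated. Cfap43 had 20 reads or more in 8 of 96 club cells, at a median of 99 CPM, and in 9 AT2 cells of Sftpc-TD (6.04%), at a median of 147.7 CPM. Cfap44, with which it forms a complex, did so in 2 cells. Spag1, a dynein arm assembly factor, had 20 reads or more in 10 of 96 club cells and 16 AT2 cells (10.7%), and was read in only 10 of the 24 ciliated cells. Cfap69, a central pair protein, had 20 reads or more in 11 AT2 cells of Sftpc-TD (7.38%) and in 0 of 96 club cells.

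Reads of the 12 singly named genes were spread thinly over the other cells. With every cell thinned to 100000 reads (12 shallower cells left out), at least 1 read of any of the 12 remained in 38 of 94 club cells of Scgb1a1-TD (40.4%, 95% Clopper-Pearson interval 30.4% to 51%) and in 12 of 37 BASCs of that line (32.4%, 18% to 49.8%). It remained in 60 BASCs of BASCs-Tracer (45.1%, 36.5% to 54%) and in 23 AT2 cells of Sftpc-TD (15.5%, 10.1% to 22.4%). In the smaller groups it remained in 3 of 13 club cells of BASCs-Tracer (23.1%, 5.04% to 53.8%) and in 1 of 11 BASCs of Sftpc-TD (9.09%, 0.23% to 41.3%). Intervals cover counting error over cells only. Without thinning the shares were 87.6%, 81.6%, 79% and 35.6%, at median depths of 1082694, 1091825, 775502 and 1114309 reads. In CPM, the sum over the 12 was 9.13 in club cells without club cell 24 (47.9 with it) and 8.48 in the BASCs beside them. It was 7.24 in the BASCs-Tracer BASCs and 2.73 in the Sftpc-TD AT2 cells, and 1.35 in the BASCs of that line and 1.32 in BASCs-Tracer club cells without club cell 12, against 9111 CPM in ciliated cells.

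These shares were also taken by plate. Plates 2, 3 and 4 held ciliated cells, and plates 1 and 5 held none. Among AT2 cells of Sftpc-TD, a read of the 12 genes was found after thinning in 16 of 60 cells on plate 4 (26.7%, 16.1% to 39.7%) and in 7 of 88 on plate 5 (7.95%, 3.26% to 15.7%). Without thinning the shares were 55% and 22.5%. Among BASCs of BASCs-Tracer the shares were 48.8% on plate 1 (41 of 84, 37.7% to 60%) and 38.8% on plate 2 (19 of 49, 25.2% to 53.8%), and 77.6% and 81.1% without thinning, so the order turned with thinning. Among club cells of Scgb1a1-TD the shares were 42.9%, 41.4% and 33.3% on plates 2, 3 and 4. No difference between plates was tested.

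Further shallow or single cells stood above the rest. Club cell 72 of Scgb1a1-TD had 4519 reads in all, 7 of them from the 12 genes, and club cell 81 had 6131 reads, 6 of them from these genes. BASC 92 of BASCs-Tracer held 7 reads of the 12 genes in 25649 (272.9 CPM), and another BASC of that line held 7 in 31876 (219.6 CPM). A deeper BASC of BASCs-Tracer, at 229917 reads, held 48 reads of the 12 genes (208.8 CPM), and AT2 cell 75 of Sftpc-TD on plate 5 held 36 in 245547 (146.6 CPM). Apart from the 5 cells of both programmes, these 6 cells had the highest sums outside the ciliated cells.

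Comparisons between cells that are not ciliated gave no common direction for the set. Between Scgb1a1-TD club cells and the AT2 cells from Sftpc-TD mice, which share plate 4 only, 19 genes were measured, of which 7 were 2-fold or more higher and 3 lower in club cells, where 15.8% of all measured genes were higher and 19.5% lower. Of the 7, Tmem212, Fam183b, Ccdc153, Cdhr3 and Cfap126 rested on club cell 24: without it 14 genes were measured, 2 were higher (Cfap45, and Spag5 mainly through club cell 73) and the same 3 lower (Cfap69, Cfap97 and Rsph9). Between BASCs of BASCs-Tracer and AT2 cells of Sftpc-TD, which share no plate, all 12 measured genes lay within 2-fold, with a median of -0.23, where 9.9% of all genes were higher and 9.17% lower in BASCs. Rsph9 was at 16.5 and 11.5 CPM there, and Cfap20 at 49.3 and 92.2 CPM. Between club cells of BASCs-Tracer and of Scgb1a1-TD, 17 genes were measured, 3 higher and 9 lower in BASCs-Tracer, against 21.1% and 29.1% of all genes. Without club cell 12 of BASCs-Tracer and club cell 24 of Scgb1a1-TD, 13 were measured, 3 higher and 5 lower. All 3 of the higher ones leaned on single cells. Tekt2 had 6.51 CPM in BASCs-Tracer, and 0.0754 CPM without club cell 10 as well. Cfap45 had 14 CPM there, and 6.53 CPM without club cell 7, against 5.29 CPM in Scgb1a1-TD. Cfap298 had 72.9 CPM, and 39.1 CPM without club cell 9, against 27.2 CPM in Scgb1a1-TD. Cfap36 was among the lower ones, at 2.83 CPM in BASCs-Tracer and 32.7 CPM in Scgb1a1-TD, and 1 of 14 cells against 36 of 96 had 20 reads or more of it.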

How the data were processed

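Raw read counts per gene and cell were used as the authors deposited them, with no scaling and no molecular identifiers. HISAT2, HTSeq and GRCm38 are named in the submitters' processing notes, with tool versions not given in the sources used here; per the labels' protocols cDNA was amplified by PCR and tagged with Nextera XT. Columns were joined to cells by name, and 0 columns stayed unused. GENCODE M21 gave symbols, positions and exon lengths; 105 genes without a symbol held 0.00513% of reads. Counts were summed per line and sub-type and scaled by all gene-assigned reads (CPM). Intervals are 95% Poisson or Clopper-Pearson and cover counting error only; PCR reads are not independent molecules. Measured meant 5 CPM or more in either group, and 1 CPM was added before log2. No doublet caller and no test between groups were run. Named genes were all Rsph, Tekt and singly named genes, the 10 highest Cfap and Spag genes per length, those within 2-fold, those without a read and the 5 most widely read elsewhere; further genes were chosen after their values were seen. The genes and lists were chosen with earlier results of these data known. The ratio step was also run on simulated cells with changed genes. These cells differed by counting error only, and only genes well above the minimum in the second group were changed. That run therefore does not cover the spread between real cells or genes that are low in the second group. Alternatives were other ways to combine, scale, filter and thin cells, each plate left out or alone, and, added after the data were seen, leaving out the cells of both programmes. Python 3.11.15, NumPy 2.4.6, pandas 2.3.3 and SciPy 1.17.1 were used. Promoter windows came from the RefSeq table; the genes without one were Cfap53, Cfap54, Cfap65, Cfap73, Cfap97, Cfap157, Cfap299, Efcab1, Riiad1, Rsph1, Rsph4a, Rsph10b, Spag1, Spag11a and Spag11b.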

Additional observations from a re-analysis of the deposited data

How the results depend on the processing

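The count of genes 2-fold or more higher in ciliated cells lay between 55 and 59 against club cells under all alternatives run. Between 28.4% and 45.4% of all genes were higher there. Against BASCs the count lay between 55 and 60, with 34.2% to 50% of all genes higher. In the main setting, 45 of 61 measured genes (club cells) and 50 of 61 (BASCs) passed the minimum through ciliated cells alone. These therefore had to be higher there. The median log2 ratio against club cells was 4.50 with 10 CPM added, 7.49 without plate 3 and 7.98 on plate 4 alone, and 25 genes in place of 46 were past 32-fold with 10 CPM added. Of 507 single-gene ratios under the alternatives, 70.6% stayed within 1.5-fold of the main value, 29.2% moved further, and 1 that was 2-fold or more reversed: Cfap97 was at -1.62 on plate 4 alone, with 0.465 CPM in its 6 ciliated cells. The 507 include 39 ratios without a filter on low genes, which could not move because the filter does not enter a ratio. The share that stayed was 100% with scaling by the median ratio, 17.9% with 10 CPM added, and 35.9% on plate 2 alone and on plate 4 alone. Scaling by the median ratio applies 1 factor per group to all genes, so its 100% says only that this shift stayed within 1.5-fold. Without division by length, 6 of the 10 highest genes were shared. Without the cells of both programmes, 2 genes in place of 7 were higher in club than AT2 cells, and 5 in place of 9 were lower in club cells of BASCs-Tracer.

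Shares of cells with a read of the 12 genes moved with the depth and the read minimum. In club cells of Scgb1a1-TD, its BASCs, BASCs of BASCs-Tracer and AT2 cells they were 87.6%, 81.6%, 79% and 35.6% without thinning and 3.19%, 2.70%, 3.01% and 2.70% at 5 reads or more. At 2 reads or more they were 22.3% in club cells, 20.3% in BASCs of BASCs-Tracer and 6.08% in AT2 cells. BASCs of Scgb1a1-TD gave 50% on plate 2 alone (4 cells) and 0% on plate 4 alone (10 cells, which allows up to 30.8%); AT2 cells gave 26.7% on plate 4 and 7.95% on plate 5. No paired analysis was possible because replicate numbers only name cells in accession order and pair none. Within plates 2, 3 and 4, which ciliated and club cells share, 56 of 59, 58 of 61 and 55 of 57 measured genes were higher in ciliated cells. Of all genes, 43.8%, 41.6% and 44.5% were higher on these plates. On plate 4, 1 gene of the set was lower.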

Other observations

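A few genes of the set were strongly read in single cells outside the ciliated cells. Spag8, a protein of the sperm flagellum and of cilia, had 340 reads (323.8 CPM) in AT2 cell 16 of Sftpc-TD on plate 4 and 276.3 CPM in BASC 8 of BASCs-Tracer on plate 1. These 2 cells held 94.4% and 93.9% of the Spag8 reads of their groups. Spag5, which encodes a protein of the mitotic spindle, had 524 reads (382.3 CPM) in club cell 73 of Scgb1a1-TD, 91.9% of the reads of the 96 club cells. Tekt5 was read in 2 BASCs of Scgb1a1-TD at 69.7 and 124.4 CPM, and in 1 of 24 ciliated cells at 26.8 CPM. Tekt2 had 93 reads (79.7 CPM) in club cell 10 of BASCs-Tracer and Tekt4 had 118.7 CPM in BASC 68 of the same line. No explanation of these cells was tested.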
